A study of Rattus norvegicus with 30 samples.

Results

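The 32 genes described here encode the extracellular matrix of the liver, the enzymes that crosslink and degrade it, and proteins that mark the cells that make it. They were taken by gene symbol, not by any measured value, out of 14217 genes that a platform table ties to a probe set naming that gene alone. Where a gene had several such probe sets (17 of the 32 genes, on 53 probe sets in all), the one with the highest mean over all arrays represented it.

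In the liver, hepatic stellate cells lie in the space between hepatocytes and the sinusoidal endothelium, where they store retinoids and secrete most of the matrix, with further contributions from portal fibroblasts and endothelium. Collagens are secreted as procollagens, trimmed, assembled and then crosslinked by lysyl oxidases, while matrix metalloproteinases cut them and tissue inhibitors of metalloproteinases (TIMPs) hold those enzymes back. After injury, stellate cells can turn into myofibroblasts that make smooth muscle actin and more fibrillar collagen.

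Liver RNA came from Wistar Han rats given corn oil or DE-71, a commercial mixture of polybrominated diphenyl ethers (PBDE) used as a flame retardant, at 50 mg/kg, first through the dam and then directly. The 6 groups of 5 livers were male control pups, female control pups, male PBDE pups and female PBDE pups, all on postnatal day 22, and adult control rats and adult PBDE rats, both male, at week 13. Every pup had a dam of its own, as had every adult within its dose group. Pups were dosed daily up to the day before collection, whereas dosing after weaning ran on weekdays only, so the adults differ from the pups in dosing schedule as well as in age. The animals carried no transgene, and all groups, controls included, received the oil vehicle.

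Values are log2 signals of an Affymetrix rat genome array, on which a difference of 1 is a factor of 2. Array medians ran from 5.72 to 5.77. The mean correlation of an array with its group ran from 0.988 to 0.994. The tissue label was checked on albumin (Alb), the main protein hepatocytes secrete, which stood between 15.43 and 15.44 in all 6 group means. A prefix in the array names divides the arrays into 2 series: control pups of both sexes and the male PBDE pups are in array series 1, whereas array series 2 has the adults of either dose together with the female PBDE pups. Comparisons that cross the series cannot be told apart from it. They are the dose comparison in female pups, the sex comparison under PBDE, sex by dose in pups, and pups against adults within a dose. Differences were tested with limma and Benjamini-Hochberg adjustment over 31042 probe sets, at a false discovery rate of 0.01 between pups and 0.05 where adults enter.

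The library most often highest in its group for these genes was followed in more detail. The liver of female PBDE pup replicate 2 had the highest value of its group for 21 of the 32 genes, against 17.8% of all genes. Its mean over the 32 genes was 8.68, whereas the other 4 livers of that group ran from 7.79 to 8.24. It exceeded the mean of those 4 livers by 3.19 for Postn, 2.70 for Lum, 1.83 for Dcn and 1.18 for Col1a1. The smooth muscle genes Myh11, Cnn1 and Tagln exceeded that mean by 2.53, 1.44 and 1.35 in the same liver. Without it, 0 of the 32 genes were higher and 2 lower with DE-71 in female pups, as with it. Of all genes 3.47% were then higher and 1.82% lower. For sex under PBDE 0 of the 32 passed, against 0.0141% of all genes higher and 0.0211% lower. For sex by dose 0 passed, as for 0% of all genes. Single values are given with and without this liver below. Other livers were often extreme too. Male control pup replicate 4 was lowest of its group for 19 of the 32 genes and female PBDE pup replicate 1 for 17, each against 19.1% of all genes. Male PBDE pup replicate 3 and adult control rat replicate 5 were each highest for 16, against 18.7% and 16.4% of all genes.

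The widest difference in these genes was between ages. In control males, 26 of the 32 genes were lower at week 13 than on day 22 and 0 were higher (limma), against 18.6% of all genes lower and 10.9% higher. All 32 differences were negative, with a median of -0.97 on the log2 scale, against -0.02 over all genes. At least 2-fold lower were 16 of the 32 genes, against 2.15% of all genes. For 23 of them every adult control liver lay below every male control pup, against 13.4% of all genes; 0 were higher without overlap, against 7.69% of all genes. In whole liver, fewer cells of a type and less RNA per cell cannot be told apart.

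**Figure D1:**
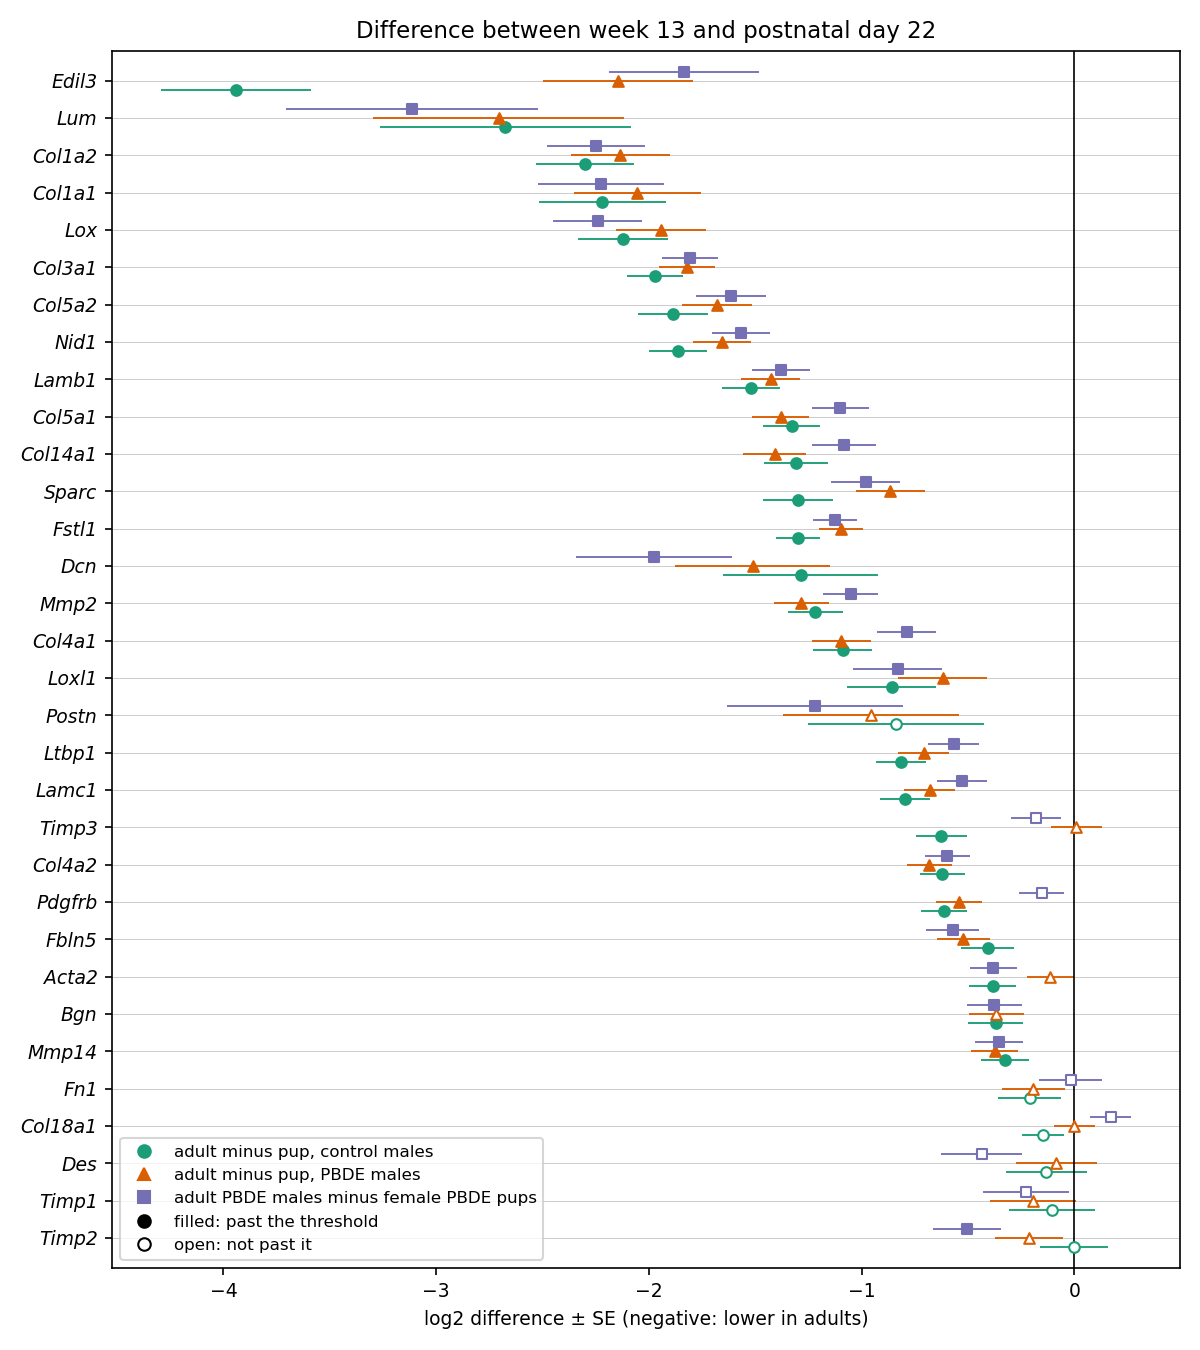
Log2 differences (adult minus pup, ± SE of the fit, 5 livers a group) for the 32 genes, ordered by the difference in control males; circles are control males, triangles PBDE males and squares adult PBDE males against female PBDE pups within array series 2, with filled symbols past the threshold. Nearly all symbols lie left of 0, from -3.94 for Edil3 in control males to 0.17 for Col18a1 in the comparison within array series 2.

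Among the 9 collagen genes, 8 fell with age in control males. Col1a1 and Col1a2 encode the chains of type I collagen, the main fibrillar collagen of scar and capsule. Col1a1 stood at 9.48, 9.02, 9.15, 8.38 and 8.72 in male control pups and at 6.40, 7.36, 6.60, 6.55 and 6.74 in adult control rats. The groups did not overlap, and the adult mean was 4.66-fold lower (log2 difference -2.22 ± 0.30 SE, adjusted p = 1.84e-06, n = 5 per group, limma). Its partner Col1a2 was 4.93-fold lower (-2.30 ± 0.23, adjusted p = 1.30e-08, limma).

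Col3a1, a fibrillar collagen laid down with type I, read 12.13, 11.92, 12.02, 11.51 and 11.86 in male control pups. In adult control rats it read 10.02, 9.96, 9.67, 9.75 and 10.18, so that the nearest livers of the groups stood more than 1 log2 unit apart. The difference was -1.97 ± 0.13 (adjusted p = 2.49e-12, limma). The type V chains Col5a2 and Col5a1, which join type I fibrils and limit their width, differed by -1.89 ± 0.17 and -1.33 ± 0.13, and Col14a1, a collagen bound to the fibril surface, by -1.31 ± 0.15.

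Col4a1 and Col4a2 encode the chains of the type IV network of basement membranes and fell by 1.09 ± 0.14 and by 0.62 ± 0.11 on the log2 scale. They lie head to head on chromosome 16, so that their starts share the short stretch between them. It is shown because both genes were lower with age, as the plus strand of build GRCr8 at chr16:84885521-84885596, with the 6-base match to GGGCGG (here on the other strand) in capitals:
Col4a2-Col4a1: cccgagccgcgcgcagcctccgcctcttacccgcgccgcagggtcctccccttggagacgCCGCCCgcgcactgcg
The remaining collagen, Col18a1, whose product carries the endostatin fragment, gave -0.15 ± 0.10 (adjusted p = 0.311) and overlapped between the ages.

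**Figure D2:**
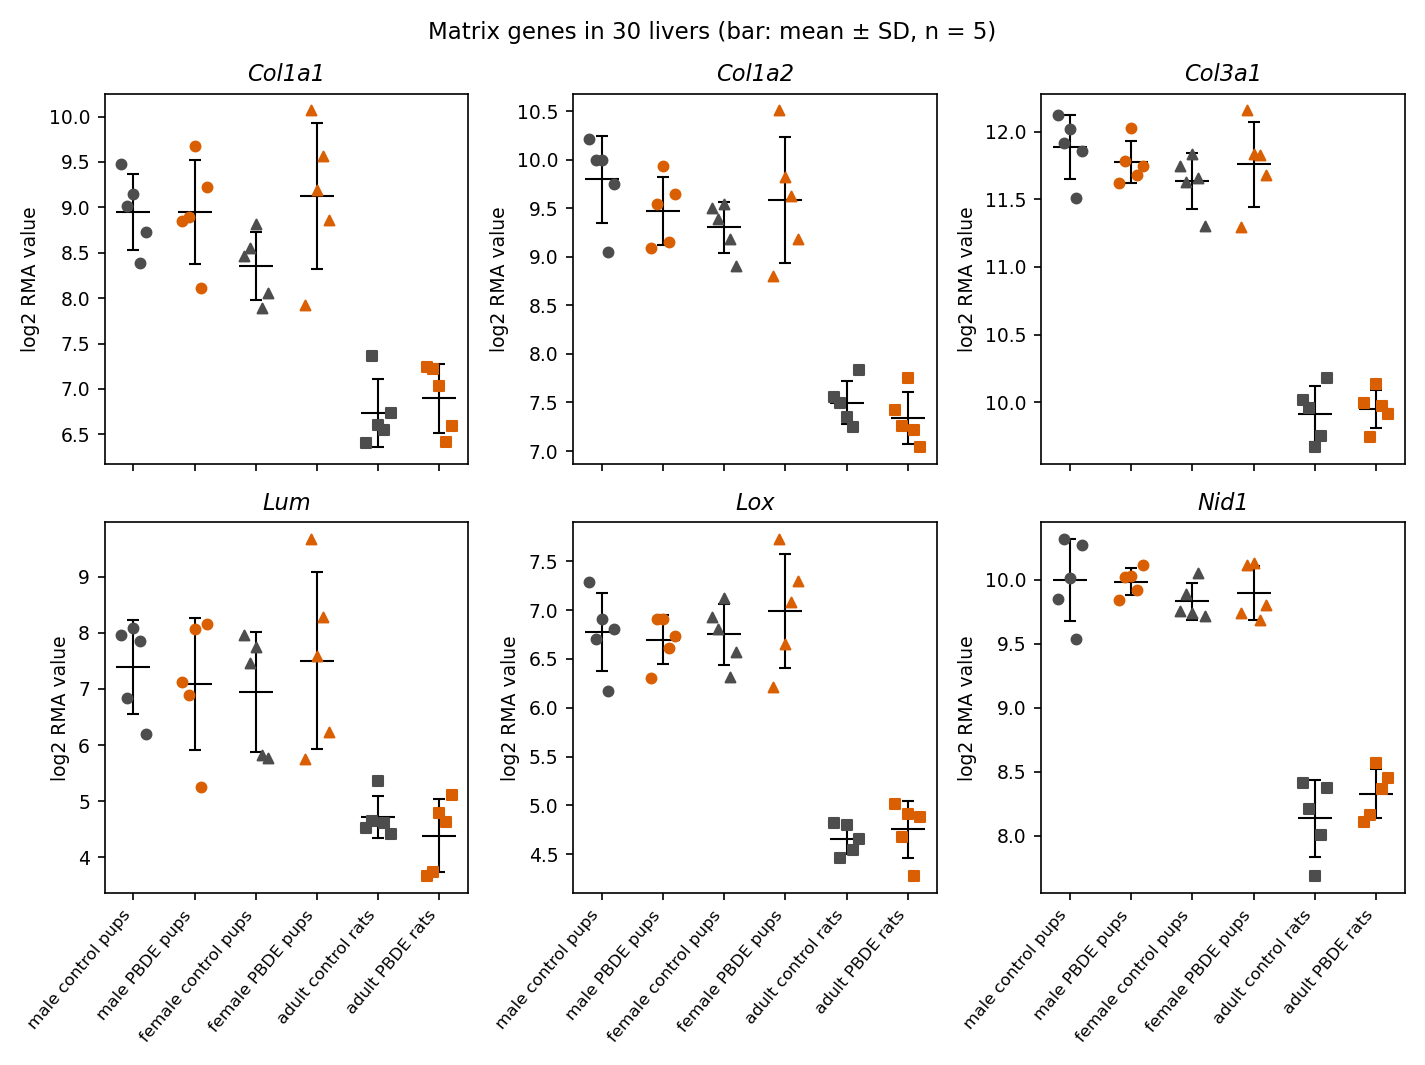
Log2 RMA values of 6 matrix genes in each of the 30 livers by group, with bars for mean ± SD (n = 5); grey symbols are controls, orange symbols PBDE animals, circles male pups, triangles female pups and squares adults. For Col1a1, Col1a2, Col3a1, Lox and Nid1 all 10 adult livers lie below all 20 pup livers, and for Lum the highest adult liver (5.36) lies above the lowest pup liver (5.25).

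Lumican (Lum), decorin (Dcn) and biglycan (Bgn) are small leucine-rich proteoglycans that bind collagen fibrils. All 3 were lower in adult controls. Lum varied most among livers: it stood at 7.96, 6.84, 8.09, 7.86 and 6.20 in male control pups and at 4.52, 4.66, 5.36, 4.61 and 4.42 in adult control rats. The pups spread over nearly 2 log2 units, yet all of them lay above all adults, and the difference was -2.68 ± 0.59 (adjusted p = 0.00111, limma). Dcn differed by -1.29 ± 0.37 and Bgn by -0.37 ± 0.13, the latter with overlapping groups (adjusted p = 0.0101 and 0.0365, limma). The 150 bases before the RefSeq start of Lum, on the plus strand at chr7:34245556-34245705, are shown because this gene has the widest spread; the CCAAT box, read here on the other strand, is in capitals:
Lum: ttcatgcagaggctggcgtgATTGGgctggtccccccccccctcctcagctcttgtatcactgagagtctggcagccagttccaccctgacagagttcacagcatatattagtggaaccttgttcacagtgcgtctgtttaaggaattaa

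Lamb1 and Lamc1, chains of the common laminins, and Nid1, which links laminin to type IV collagen, were all lower in adult controls. Nid1 read 9.85, 10.32, 10.01, 9.54 and 10.27 in male control pups and 8.41, 8.21, 7.68, 8.01 and 8.38 in adult control rats, with no overlap. Its difference was -1.86 ± 0.14 (adjusted p = 1.78e-11, limma), and between -1.98 and -0.83 over the alternatives listed below. Lamb1 differed by -1.52 ± 0.14 and Lamc1 by -0.80 ± 0.12.

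Of the 7 other glycoproteins, 5 were lower. Edil3, which codes for a secreted integrin ligand with EGF and discoidin domains, read 6.08 to 7.66 in male control pups, above every array median, and 3.10 to 3.52 in adult control rats, where 2.02% of all probe sets had a lower mean. The signals differed by -3.94 ± 0.35 (adjusted p = 1.37e-09, limma), but with the adults at the low end of the array this is no exact fold and is not ranked against the other genes. Lum and Lox likewise lay above the array median in 0 of 5 adult control livers, with 32.3% and 31.1% of probe sets lower. Sparc, a collagen-binding protein of cells that lay down matrix, differed by -1.30 ± 0.16 and Fstl1, a secreted glycoprotein of mesenchymal cells, by -1.30 ± 0.10. Ltbp1, which tethers latent TGF-beta to the matrix, differed by -0.81 ± 0.12, and Fbln5, needed for elastic fibre assembly, by -0.41 ± 0.12. Fn1 (fibronectin, which hepatocytes secrete into plasma) gave -0.21 ± 0.15 and Postn (periostin) -0.84 ± 0.41, neither past the threshold. Postn lay above its array's median on 1 of 30 arrays.

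Lox, the lysyl oxidase that starts collagen crosslinking, read 7.29, 6.70, 6.90, 6.17 and 6.81 in male control pups and 4.82, 4.46, 4.80, 4.54 and 4.66 in adult control rats. The groups were well apart, with a difference of -2.12 ± 0.21 (adjusted p = 1.09e-08, limma). Its relative Loxl1, which acts on elastin, differed by -0.86 ± 0.21. Mmp2 (gelatinase A) differed by -1.22 ± 0.13. Its membrane-bound activator Mmp14 gave -0.33 ± 0.11 (adjusted p = 0.0335) and the inhibitor Timp3, which stays bound to the matrix, -0.62 ± 0.12 (adjusted p = 2.38e-04, limma). The soluble inhibitors Timp1 (-0.11 ± 0.20) and Timp2 (-0.00 ± 0.16) did not pass. Pdgfrb, the PDGF receptor of stellate cells and pericytes, differed by -0.61 ± 0.11 and the smooth muscle actin gene Acta2 by -0.38 ± 0.11, while the muscle filament gene Des gave -0.13 ± 0.19 and did not pass. Pdgfrb did not pass in the age comparison within array series 2. Its means in array series 1 were 7.31 in male control, 7.17 in female control and 7.12 in male PBDE pups. In array series 2 they were 6.73 in female PBDE pups, 6.70 in adult control rats and 6.58 in adult PBDE rats.

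In PBDE males, 23 of the 32 genes were lower at week 13 and 0 higher, against 13.6% and 5.2% of all genes. The median difference was -0.91, against -0.03 over all genes, and 15 of the 32 genes were at least 2-fold lower, against 1.53% of all genes. The groups did not overlap for 22 genes lower and 0 higher, against 9.69% and 3.76% of all genes. All 23 genes were also among the 26 of the control males, which makes 88.5% of the control list. The 3 genes past the threshold in controls alone were Bgn (-0.37 ± 0.13 under PBDE, adjusted p = 0.0545), Timp3 (0.01 ± 0.12) and Acta2 (-0.11 ± 0.11). Whether the ages differ by dose is tested below for each gene. Differences included -2.71 ± 0.59 for Lum, -2.14 ± 0.35 for Edil3, -2.13 ± 0.23 for Col1a2 and -2.06 ± 0.30 for Col1a1.

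Both age comparisons within a dose set array series 2 against array series 1. Within array series 2, adult PBDE males could be compared with female PBDE pups, a pair that differs in sex too. There, 26 of the 32 genes were lower in adults and 0 higher, against 15.2% and 6.23% of all genes, with a median of -0.91 against -0.03 over all genes. At least 2-fold lower were 15 genes, against 1.65% of all genes, and 20 genes were lower without overlap and 0 higher, against 11.2% and 4.54% of all genes. Lum (-3.11 ± 0.59), Col1a2 (-2.25 ± 0.23), Lox (-2.24 ± 0.21), Col1a1 (-2.23 ± 0.30), Dcn (-1.98 ± 0.37) and Edil3 (-1.84 ± 0.35) were among them. Without female PBDE pup replicate 2, 22 genes passed, and Bgn, Timp2, Acta2 and Postn lost the call. The share of all genes was not counted for that fit. Lum then gave -2.57, Dcn -1.61 and Col1a1 -1.99. The 3 age comparisons share arrays, so their values stand side by side and are not independent. Called in all 3, and under every alternative processing of each, were 18 genes: Col1a1, Col1a2, Col3a1, Col4a1, Col4a2, Col5a1, Col5a2, Col14a1, Lum, Dcn, Mmp2, Sparc, Lox, Fstl1, Lamb1, Nid1, Ltbp1 and Edil3. Col18a1, Fn1, Timp1 and Des were called in none of the 3.

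Of the 21 probe sets that did not represent their gene, 10 were lower in adult controls and 0 higher, and the rest did not pass. Of all 6609 such probe sets on the array, 8.14% were lower and 14.1% higher. Some differences in control males were smaller under other processing, with the call kept. Over the alternatives, Nid1 ran from -1.98 to -0.83 and Mmp2 from -1.28 to -0.57. Lamc1 ran from -0.88 to -0.48 and Pdgfrb from -0.80 to -0.32.

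Other genes were followed in 15 lists that hold 257 measured genes. Their counts in adult controls stand against 18.6% of all genes lower and 10.9% higher, which several of them approach. Among 21 other collagens 6 were lower in adult controls and 0 higher, led by the microfibrillar collagen genes Col6a1 (-1.19 ± 0.13) and Col6a2 (-1.10 ± 0.13). Among 18 enzymes of collagen processing 8 were lower and 0 higher, including Loxl2, a further lysyl oxidase (-2.10 ± 0.13), and Serpinh1, the collagen chaperone HSP47 (-1.48 ± 0.14). Of 41 other basement membrane, elastic fibre and matrix glycoproteins 21 were lower, such as Fbn1, the main microfibril protein (-1.94 ± 0.19), and 2 were higher. Those were Omd, a leucine-rich proteoglycan known from bone (2.24 ± 0.16), and Vtn, the plasma protein vitronectin made by hepatocytes (0.36 ± 0.08). Other matrix proteases and inhibitors had 8 of 27 lower and 1 higher, TGF-beta and PDGF signalling 8 of 27 lower and 5 higher, and matrix receptors 6 of 22 lower and 2 higher. Within array series 2, where 15.2% of all genes were lower and 6.23% higher, the counts were 6 of 21 other collagens lower, 8 of 18 processing enzymes lower with 1 higher, and 22 of 41 glycoproteins lower with 2 higher. TGF-beta and PDGF signalling there had 3 lower and 5 higher, and in PBDE males 4 lower and 3 higher.

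Markers of liver cell types were measured on the same arrays. Of 16 stellate cell markers 8 were lower in adult controls and 0 higher: Lrat, which esterifies retinol for storage (-0.74 ± 0.16), and Angptl6, Colec11, Reln, Lhx2, Tcf21, Hand2 and Cygb, at -0.75 to -0.39. Their mean level ran from 7.43 to 7.52 in male control pups and from 7.09 to 7.30 in adult control rats. Of the markers often used to define stellate cells, Gfap and Ngfr lay above the array median on 0 of 30 arrays, while Lrat, Reln, Hand2 and Cygb lay above it on all 30. Myofibroblast and smooth muscle markers had 5 of 14 lower and 1 higher, endothelial markers 9 of 12 lower, Kupffer cell and macrophage markers 1 of 10 lower, cell cycle genes 13 of 15 lower and hepatocyte markers 3 of 11 lower, the last 4 with 0 higher. Cholangiocyte and mesothelial markers each had 3 of 7 lower and 1 higher, and lymphocyte markers 0 of 10 lower and 1 higher. These shifts were not of 1 size in the other age comparisons: endothelial markers had 4 of 12 lower and 2 higher in PBDE males and 4 lower and 0 higher within array series 2. Stellate cell markers had 8 of 16 lower in PBDE males, and 6 lower with 2 higher within array series 2. Lrat and Reln were not among those 6. All 15 cell cycle genes were lower in both of these comparisons. RNA quality was followed by how far the Gapdh control probe set at the 3' end exceeded the one at the 5' end, and this gap was 1.61 ± 0.33 (SD, n = 5) in male control pups and 0.62 ± 0.18 in adult control rats. With that gap as a covariate, 25 of the 26 genes were called lower in control males, 22 of 23 in PBDE males and 24 of 26 within array series 2, with Sparc moving from -0.87 to -1.31 in PBDE males. The part of the stellate, endothelial and cell cycle marker shifts in the age differences was not tested.

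Fewer of the genes passed with DE-71 than with age, though the threshold between pups was stricter. Those lower make 9.38% of the 32 genes in male pups and 6.25% in female pups. In male pups 0 of the 32 genes were higher and 3 lower past the threshold (limma), against 4.23% of all genes higher and 3.26% lower; the 3 were Edil3, Sparc and Acta2. The median of the 32 genes was -0.10, against 0.02 over all genes. An unadjusted p under 0.05 was reached by 1 gene higher and 4 lower. In female pups 0 were higher and 2 lower, Edil3 and Pdgfrb, against 3.95% and 2.18% of all genes, and the median was 0.04, against 0.02. Without replicate 2 that median was -0.04, and an unadjusted p under 0.05 was reached by 1 gene higher and 7 lower. In adult males 0 were higher and 0 lower, against 1.86% and 2.04%, and an unadjusted p under 0.05 was reached by 0 genes higher and 3 lower. The share of all genes at that unadjusted cutoff was not counted. The counts at unadjusted p therefore cannot be called many or few.

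**Figure D3:**
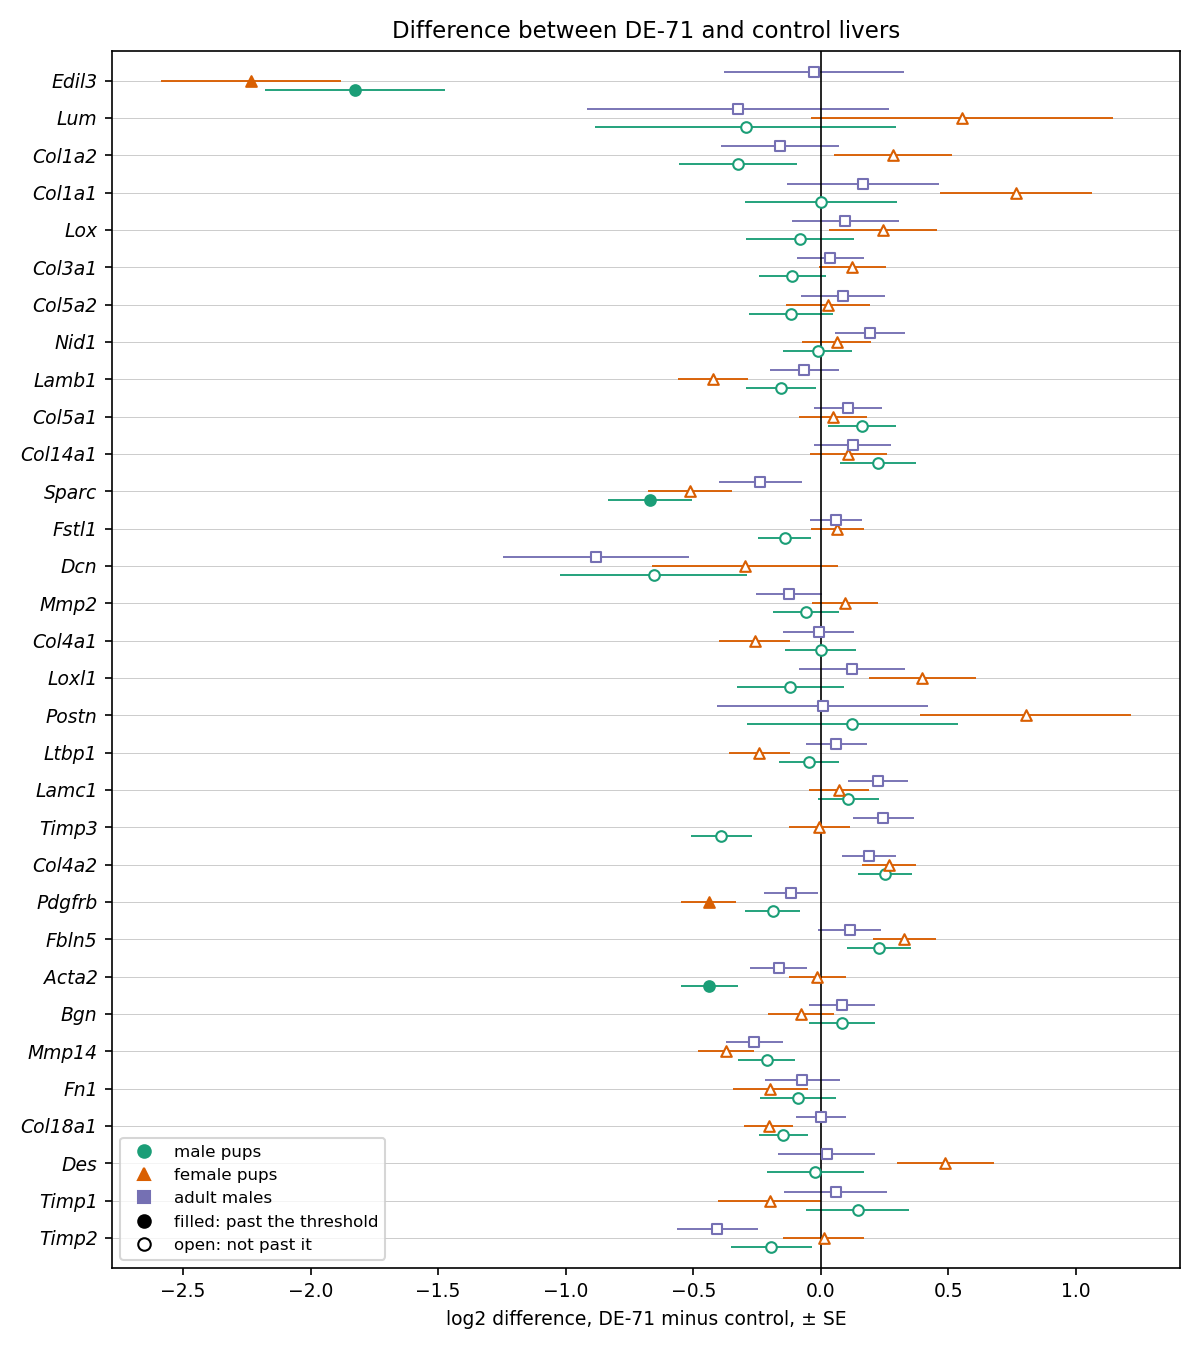
Log2 differences (DE-71 minus control, ± SE of the fit, 5 livers a group) for the 32 genes in the order of the age plot; circles are male pups, triangles female pups and squares adult males, with filled symbols past the threshold. Filled symbols are those of Edil3 in both pup sexes (-1.83 and -2.24), Sparc (-0.67) and Acta2 (-0.44) in male pups and Pdgfrb (-0.44) in female pups, and 0 squares are filled.

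Edil3 was the one gene past the threshold in both sexes of pups. In male control pups it read 6.08, 7.19, 7.66, 7.48 and 7.47 and in male PBDE pups 5.08, 6.45, 5.14, 4.83 and 5.25. PBDE replicate 2 stood above control replicate 1, and the other 4 PBDE livers lay below all controls. The difference was -1.83 ± 0.35, or 3.55-fold lower (adjusted p = 7.73e-04, n = 5 per group, limma). Those 4 PBDE livers lay below every array median (5.72 to 5.77), so the fold is not exact.

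In female control pups Edil3 read 7.52, 7.19, 7.59, 7.58 and 6.52 and in female PBDE pups 3.80, 5.90, 4.10, 6.19 and 5.22. Every PBDE liver lay below every control liver, and the PBDE livers themselves spread over more than 2 log2 units. The difference was -2.24 ± 0.35, or 4.71-fold lower (adjusted p = 8.07e-05), and -2.45 without replicate 2 (adjusted p = 4.61e-05, limma). The PBDE livers at 3.80, 4.10 and 5.22 lay below every array median, so this fold is not exact either. In both sexes the call held under all 19 alternatives, with the difference between -2.10 and -1.70 in males and between -2.52 and -1.93 in females. The mean of its probe sets gave the same differences as the main fit, -1.83 and -2.24. That alternative was therefore no separate check on the probe set.

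In adults Edil3 was low in both groups, at 3.13, 3.16, 3.26, 3.10 and 3.52 in controls and 3.46, 3.04, 3.39, 3.00 and 3.16 under PBDE. These values lie below the array medians and overlap fully (-0.03 ± 0.35, adjusted p = 0.982, limma). With both adult groups at the low end of the array (1.58% to 2.02% of probe sets lower), a fall with DE-71 could not have been seen in adults. The dose difference in adults minus that in male pups, 1.80 ± 0.50 (adjusted p = 0.056), is therefore mostly the male pup difference with its sign turned. It passed 0.05 in 6 of 29 alternatives, with adjusted p from 0.0163 to 0.108.

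**Figure D4:**
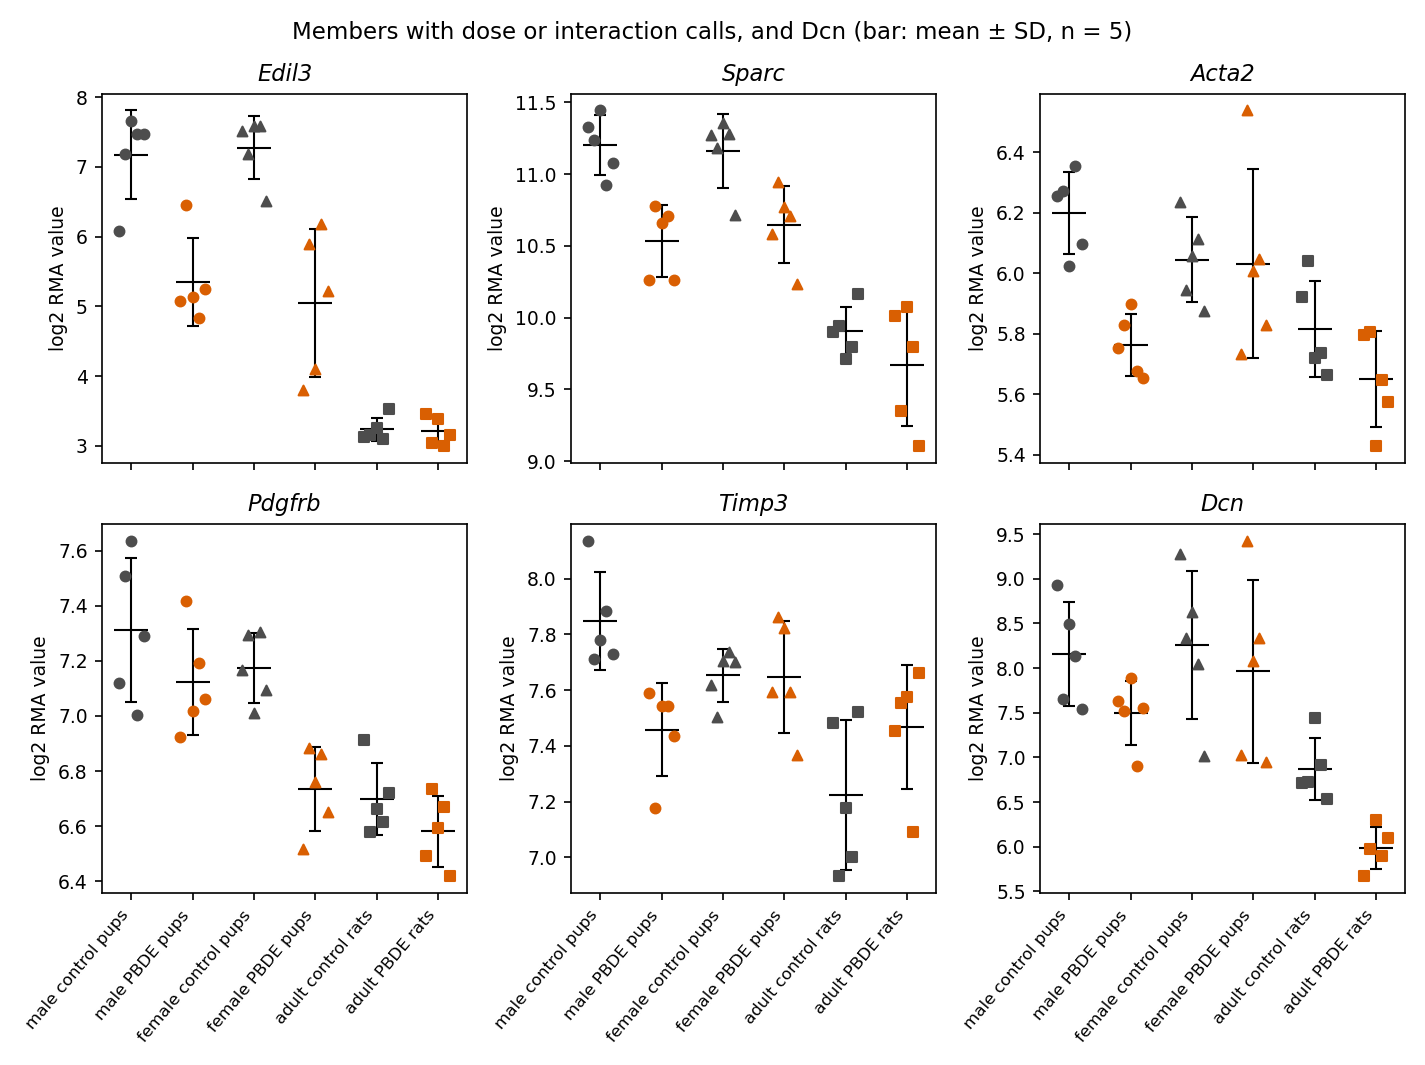
Log2 RMA values of Edil3, Sparc, Acta2, Pdgfrb, Timp3 and Dcn in each of the 30 livers by group, with bars for mean ± SD (n = 5); symbols are those of the plot of matrix gene levels. Edil3 means are 7.18 and 5.35 in male control and PBDE pups, 7.28 and 5.04 in female control and PBDE pups, and 3.23 and 3.21 in adult control and PBDE rats.

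Sparc read 11.33, 11.24, 11.44, 10.92 and 11.08 in male control pups and 10.26, 10.78, 10.66, 10.71 and 10.26 in male PBDE pups. The groups did not overlap, and PBDE pups were 1.59-fold lower (-0.67 ± 0.16, adjusted p = 0.00672, limma). Female pups gave -0.51 ± 0.16 (adjusted p = 0.0478, not past 0.01; -0.59 without replicate 2, adjusted p = 0.0318) and adults -0.24 ± 0.16 (adjusted p = 0.509). The second Sparc probe set did not share the dose difference, at -0.04 in male pups, 0.06 in female pups and 0.14 in adults, although both fell with age. With the mean of the probe sets the male difference was -0.35 (adjusted p = 0.0187), and with the Gapdh gap as a covariate it was -0.44 (adjusted p = 0.00771). The call held in 9 of 19 alternatives and was lost without male control replicate 1, 2, 3 or 5 or male PBDE replicate 1, 3 or 5 (adjusted p = 0.0107 to 0.0244).

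Acta2 stood at 6.25, 6.27, 6.02, 6.35 and 6.10 in male control pups and at 5.75, 5.83, 5.90, 5.68 and 5.65 in male PBDE pups. These groups did not overlap either; the PBDE pups were 1.35-fold lower, at signals close to the array median (-0.44 ± 0.11, adjusted p = 0.0095, limma). The call held in 5 of 19 alternatives: leaving out any 1 of the 10 livers except male control replicate 3 ended it (adjusted p = 0.0113 to 0.0291). Female pups gave -0.01 ± 0.11, a value that rests on replicate 2, which read 6.54: without it the difference was -0.14 ± 0.10. The difference between the sexes in this dose effect, which crosses the array series, was 0.42 ± 0.16 with that liver (adjusted p = 0.89) and 0.30 ± 0.13 without it (adjusted p = 0.997, limma), neither past the threshold. Beside Acta2, 0 of 14 other myofibroblast and smooth muscle markers passed in male pups. The mean of that list was 0.18 lower in male PBDE than in male control pups and 0.23 higher in female PBDE than in female control pups, or 0.02 higher without replicate 2. In an exact permutation test (two-sided) the male value reached the smallest p it can give, 0.00794, and the female value p = 0.429; adjusted over 51 such tests of list means and RNA quality, these were 0.0578 and 0.575. In male pups the endothelial (-0.36), macrophage (-0.44), hepatocyte (-0.18) and TGF-beta and PDGF (-0.15) lists reached that same p, as did the endothelial (-0.21) and hepatocyte (-0.22) lists in female pups.

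The 150 bases before the RefSeq start of Acta2, on the minus strand at chr1:241172504-241172653 of GRCr8, hold a TATAA match, in capitals, which of the 21 genes with a RefSeq promoter entry only Acta2, Postn and Col1a2 do within 250 bases:
Acta2: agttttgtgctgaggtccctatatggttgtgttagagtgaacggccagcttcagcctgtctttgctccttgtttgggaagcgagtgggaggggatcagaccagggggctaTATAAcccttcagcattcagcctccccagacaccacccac
Over these 250 bases and both strands, TATAA was found in 3 of the 21 genes (24% of 33469 promoters), CCAAT in 7 (34.0%), GGGCGG in 13 (30.5%) and the AP-1 motif TGANTCA in 0 (6.3%). Among the promoters of the measured genes alone these shares were 15.1%, 35.1%, 54.2% and 4.8%.

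Pdgfrb read 7.17, 7.29, 7.01, 7.31 and 7.10 in female control pups and 6.52, 6.88, 6.76, 6.86 and 6.65 in female PBDE pups. The groups did not overlap, and PBDE pups were 1.36-fold lower (-0.44 ± 0.11, adjusted p = 0.00757, and -0.48 with adjusted p = 0.00756 without replicate 2, limma). The other Pdgfrb probe sets gave -0.21 and -0.02. The call held in 9 of 19 alternatives; it was lost without female control replicate 1, 2, 4 or 5 or female PBDE replicate 1, 3 or 5 (adjusted p = 0.0105 to 0.0299), and with the Gapdh gap as a covariate the difference was -0.31 (adjusted p = 0.0755). That gap was 1.26 ± 0.50 in female control and 1.93 ± 0.30 (SD, n = 5) in female PBDE pups. Male pups gave -0.19 ± 0.11 and adults -0.12 ± 0.11, each within 1 array series. The female comparison crosses the array series, so dose and series cannot be told apart in it.

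Timp3 was the one gene of the 32 that passed for age by dose in males. It read 8.14, 7.71, 7.78, 7.88 and 7.73 in male control pups and 7.59, 7.18, 7.54, 7.54 and 7.44 in male PBDE pups, without overlap. In adults the order was turned, with 7.48, 6.93, 7.18, 7.00 and 7.52 in controls and 7.46, 7.55, 7.58, 7.09 and 7.66 under PBDE, and these groups overlapped. Neither dose difference passed on its own (-0.39 ± 0.12, adjusted p = 0.0325 against 0.01 in pups; 0.24 ± 0.12, adjusted p = 0.307 in adults), but their difference did, at 0.63 ± 0.17 (adjusted p = 0.0454, limma). Of all genes 1.13% passed in that direction and 1.35% in the other. The call held in 10 of 29 alternatives, with adjusted p from 0.0197 to 0.23, and was lost without any 1 of 16 of the 20 livers. The other Timp3 probe sets gave 0.70 (adjusted p = 0.1), 0.21 and -0.31.

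The promoter of Timp3, on the minus strand at chr7:19459559-19459708, is shown because it holds CCAAT and GGGCGG matches together, in capitals on either strand:
Timp3: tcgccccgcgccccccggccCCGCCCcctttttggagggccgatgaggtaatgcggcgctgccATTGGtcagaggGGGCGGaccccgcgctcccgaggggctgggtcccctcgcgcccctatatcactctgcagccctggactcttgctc

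Among the genes not past the threshold for dose, Dcn gave the largest difference in adults. It read 6.72, 6.73, 7.45, 6.91 and 6.54 in adult control rats and 5.67, 5.98, 6.29, 5.89 and 6.10 in adult PBDE rats. The groups did not overlap, but the difference of -0.88 ± 0.37 did not pass (adjusted p = 0.208, limma). Fitted on the adult arrays alone it passed (adjusted p = 0.0286). Dcn was the 1 gene of the 32 lower without overlap in adults and 0 were higher, against 2.15% and 2.44% of all genes.

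In male pups the genes without overlap were Timp3, Sparc and Acta2, all lower, against 5.13% of all genes lower and 6.77% higher. In female pups they were Col4a1, Mmp14, Pdgfrb and Edil3, all lower, against 4.38% of all genes lower and 6.56% higher. Mmp14 read 10.43, 10.34, 10.56, 10.41 and 10.44 in female control pups and 10.32, 9.98, 10.15, 9.93 and 9.94 in female PBDE pups. Its difference of -0.37 ± 0.11 missed the threshold (adjusted p = 0.0335, limma), and was -0.35 without replicate 2. Col4a1 gave -0.26 in female pups, -0.30 without that liver, and -0.00 in male pups, neither past the threshold.

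The fibrillar collagens did not pass in any dose comparison. Col1a1 gave 0.00 ± 0.30 in male pups, 0.76 ± 0.30 in female pups (adjusted p = 0.122; 0.53 without replicate 2) and 0.17 ± 0.30 in adults. In female pups its PBDE values were 7.93, 10.07, 9.19, 9.56 and 8.86, the highest being that of replicate 2. Postn (0.80 ± 0.41) and Des (0.49 ± 0.19) likewise gave positive differences in female pups that did not pass, and both had their top value in that liver, at 7.50 and 7.64. Without it the mean of the PBDE livers was 4.31 for Postn and 6.14 for Des, against full-group means of 4.95 and 6.44 and control means of 4.15 and 5.95. The remaining genes lay between -0.65 and 0.25 in male pups, with standard errors from 0.10 to 0.59 (median 0.14) that set what could be seen.

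Between the sexes, 0 of the 32 genes passed in control pups and 0 in PBDE pups, against 0.0281% of all genes higher and 0.0141% lower in controls, and 0.0281% higher and lower under PBDE. An unadjusted p under 0.05 was reached by 0 genes higher and 2 lower in female than male controls, and by 1 higher and 4 lower under PBDE (limma). Without overlap were 0 genes in controls, against 0.724% of all genes higher and 0.823% lower, and Pdgfrb alone, lower, under PBDE, against 0.485% higher and 0.577% lower. In controls 24 of the 32 differences were negative, with a median of -0.13; the largest was Col1a1 at -0.59 ± 0.30 (adjusted p = 0.615). For sex by dose 0 genes passed, as for 0% of all genes, and 2 reached an unadjusted p under 0.05, both higher. Without replicate 2 that was 1 gene higher, and under PBDE it was 0 higher and 5 lower in female than male pups. Here too the share of all genes at unadjusted p under 0.05 was not counted.

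Other matrix genes differed with DE-71 in pups, in either direction. Col4a5 and Col4a4, the type IV chains found in specialised basement membranes, rose in both sexes, Col4a5 by 1.10 ± 0.20 in males and 1.02 ± 0.20 in females (adjusted p = 4.09e-04 and 0.00107) and Col4a4 by 0.55 ± 0.09 and 0.44 ± 0.09, in a list of 21 other collagens with 0 lower. In the same animals the representative probe sets of Col4a1 and Col4a2 did not pass. Omd rose by 1.12 ± 0.16 in male and 1.06 ± 0.16 in female pups, and Tgfbi, a collagen-binding protein induced by TGF-beta, fell by 0.35 ± 0.08 and by 0.56 ± 0.08, the 2 calls among 41 glycoproteins in each sex. The metalloproteinase gene Mmp19 rose by 0.58 ± 0.09 and 0.49 ± 0.09, and in males Adamts1 fell by 0.56 ± 0.14, among 27 proteases and inhibitors. Of 18 collagen-processing enzymes 0 passed in any dose comparison.

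In TGF-beta and PDGF signalling, Inhbe (activin E, made by hepatocytes) fell by 0.82 ± 0.18 and Skil, a SMAD co-repressor, by 0.68 ± 0.15 in male pups, 2 of 27 genes. In female pups 0 of those 27 passed, and in adults Smad3 rose by 0.47 ± 0.11 and Pdgfc fell by 0.32 ± 0.08. Among 22 matrix receptors Sdc1 and Itga7 fell in female pups (by 0.50 ± 0.12 and by 0.46 ± 0.11) and 0 passed in male pups or adults.

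Of the 16 stellate cell markers, Rgs5, a pericyte gene, rose by 0.68 ± 0.16 in male pups and by 0.68 ± 0.16 in adults, and Vipr1 fell by 0.34 ± 0.08 in male and in female pups. Lrat fell by 0.77 ± 0.16 in female pups (adjusted p = 0.00164, limma), a comparison that crosses the array series, and did not pass in male pups. Its means in array series 1 were 8.69 in male control, 8.83 in female control and 8.53 in male PBDE pups. In array series 2 they were 8.06 in female PBDE pups, 7.95 in adult control rats and 7.67 in adult PBDE rats. Markers of neighbouring cells moved beside these genes in male pups: 5 of 12 endothelial markers fell (Fcgr2b by 0.89 ± 0.12, Stab2 by 0.79 ± 0.13 and Ramp2 by 0.53 ± 0.10, with Lyve1 and Flt1), and 2 of 10 macrophage markers fell (Aif1 by 0.77 ± 0.17 and C1qa by 0.71 ± 0.17). The mean endothelial level ran from 8.31 to 8.54 in male control and from 7.85 to 8.21 in male PBDE pups. In female pups 3 of 12 endothelial markers fell (Fcgr2b by 0.63 ± 0.12, Flt1 by 0.41 ± 0.10 and Ramp2 by 0.39 ± 0.10) and 0 of 10 macrophage markers passed. Without replicate 2, Flt1 and Vipr1 no longer passed in female pups, and the other calls named here and above for females did. Among 7 cholangiocyte markers only Epcam, an epithelial surface protein of bile ducts, rose past the threshold, and it did so in all 3 dose comparisons. The rise was 1.07 ± 0.18 in male pups, 0.92 ± 0.18 in female pups and 1.13 ± 0.18 in adults. Krt19 of the same list did not pass. Its PBDE and control means were 6.23 and 6.52 in male pups, 6.18 and 6.50 in female pups, and 5.60 and 5.83 in adults. Cps1, a urea cycle enzyme of hepatocytes, fell by 0.29 ± 0.07 in male and by 0.31 ± 0.07 in female pups, and Ass1 of the same cycle fell by 1.01 ± 0.17 in female pups. Ccnb1 and Ccnb2, the mitotic cyclins, rose in male pups by 0.96 ± 0.19 and 0.83 ± 0.21, and Krt8 by 0.42 ± 0.10. In adults Aif1 (by 0.64 ± 0.17), Onecut1 of the cholangiocyte list (by 1.47 ± 0.41) and Cd8a (by 0.52 ± 0.13) fell. Krt18 and Mcm2 rose there by 0.38 ± 0.09 and 0.53 ± 0.13. Their part in the Edil3, Sparc, Acta2 and Pdgfrb differences was not tested. The 3' to 5' Gapdh gap was 2.09 ± 0.65 (SD, n = 5) in male PBDE against 1.61 ± 0.33 in male control pups, and 1.17 ± 0.62 against 0.62 ± 0.18 in adults.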

How the data were processed

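RNA from 30 livers was measured, 5 in each of 6 groups taken from the sample titles. The authors deposited log2 values made with RMA, per the submitters' processing notes; the software version is not given in the sources used here. RNA entered a labelling that starts at the 3' end, per the labels' protocols. The table held 31099 probe sets, of which 57 controls were kept for quality measures and 0 value columns were unused. A platform table tied 20826 of the 31042 tested probe sets to 1 gene, 436 to several and 9780 to none. The linear model had a mean for each group and used all arrays (lmFit and eBayes of limma 3.58.1, R 4.3.3); false discovery rates follow the series design text, which names R/maanova. Array series could not enter the model because every group lies in 1 series. Arrays were checked for repeats; the highest correlation was 0.995. The number of arrays limits the precision.

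Every gene of the set past the threshold in a dose comparison or interaction was named, as were up to 8 of the largest rises and falls with age and up to 3 responders of each other list in each dose comparison; other genes of the set are given by role for completeness. Values in every array were to be given for genes past the threshold for dose; those of Col1a1, Col3a1, Lum, Nid1, Lox, Dcn and Mmp14, and the Col6a1, Col6a2, Loxl2, Serpinh1, Fbn1, Omd, Vtn and stellate marker values by age, were chosen after their values were seen. The members, lists and rules were chosen with earlier results of these data known. In data simulated for the dose comparison in male pups (31042 probe sets, 200 changed), 95% of changes of 1 and 98% of changes of 2 on the log2 scale were recovered, with 4 false calls. The noise was drawn independently for each probe set, and no change under 1 was planted. The simulation therefore does not give the recovery of smaller differences, such as those of Sparc, Acta2 and Pdgfrb. The alternatives were repeated quantile normalization, centring on the 75th percentile, a filter on low values, trended robust shrinkage, no shrinkage, the compared groups alone, a replicate block, the Gapdh gap as covariate, the mean of a gene's probe sets, and each liver left out; leaving out female PBDE pup replicate 2 was extended to the other lists after seeing the data. Promoter sequences are from RefSeq, build GRCr8; 21 of the 32 genes had an entry.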

Additional observations from a re-analysis of the deposited data

Results flagged for a closer look

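In 7 of 192 sets of 5 livers (32 genes in 6 groups, 3.65%, where chance gives about 5%), 1 liver lay far from the rest by Dixon's criterion. Edil3 stood at 6.45 in male PBDE pup replicate 2, above 4.83 to 5.25 in the other livers. Timp1 stood at 7.00 in male PBDE pup replicate 3 (others up to 6.18) and at 6.65 in adult PBDE rat replicate 1 (others up to 6.01). Lum stood at 5.36 in adult control rat replicate 3 (others up to 4.66). The low values were Bgn at 8.57 in male control pup replicate 4 (others from 9.25), Sparc at 10.72 in female control pup replicate 5 (others from 11.18) and Des at 5.76 in adult PBDE rat replicate 4 (others from 6.04). The dose effect on Timp3 differed between adults and male pups by 0.63 (adjusted p = 0.0454, limma).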

How the results depend on the processing

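With 9 alternatives and 30 livers left out in turn, 384 of 420 counts of called genes stayed within 1.5 times the reported count. Counts of 0 that stayed 0 are among those 384, so this share does not describe the counts above 0. Of 87 gene differences, each called under at least 1 setting, 0 changed sign. Of 81 called gene differences, 64 were called under every alternative. In male pups the genes lower were 1 with 75th percentile centring and 1 with no shrinkage (1 to 2 with a liver left out). In female pups they were 1 with no shrinkage, 1 with the Gapdh covariate and 1 with the mean of probe sets (1 to 2 with a liver left out). In adults the count rose to 1, Dcn, with the compared groups alone. For age by dose the genes higher were 2 with the filter on low values and 2 with the Gapdh covariate (Timp3 and Edil3), 0 with no shrinkage and 0 to 1 with a liver left out; with the compared groups alone, and with the mean of probe sets, it was Edil3 in place of Timp3. The causes were not tested. Leaving out a liver gave 23 to 26 genes lower with age in control males, 21 to 24 in PBDE males and 22 to 26 within array series 2. Called but not under every alternative were Bgn, Mmp14 and Fbln5 in control males, Mmp14, Pdgfrb and Loxl1 in PBDE males, and Bgn, Timp2, Mmp14, Acta2, Loxl1, Lamc1 and Postn within array series 2; Pdgfrb in PBDE males gave -0.08 with the mean of its probe sets. No pairing of livers by replicate number was seen on average. Residuals of same-numbered arrays correlated at 0.00417 on average, against -0.000906 for others, with 18 of 75 pairs above 0.1. An average of this kind cannot exclude pairing among some of the livers. A replicate block left the counts at 3 genes lower in male pups, 2 in female pups and 26 with age in control males, and changed no other call. Without female PBDE pup replicate 2, a choice made after seeing the data, genes of the other lists past the threshold in female pups were 5 higher and 8 lower, against 5 and 10 with it.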
